A study of Mus musculus with 16 samples.

Results

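The genes of insulin-like growth factor 1, its receptor and the IGF-binding proteins are described here across the 4 groups of a Wdr5 knockout and rescue experiment in mouse embryoid bodies. The members are Igf1, Igf1r and Igfbp1 to Igfbp7, taken by gene symbol, which makes 9 of the 23282 named genes in the tables. RNA was sequenced at day 6 of SFEBq, a serum-free method in which dissociated stem cells reaggregate in floating culture, in GMEM with 5% KSR and with 2% matrigel added on day 1. All groups derive from mouse embryonic stem cells with GFP knocked in at Rx, a homeobox gene of the eye field. WT received no treatment. The KO is a single Wdr5 knockout clone, numbered 3 in the series title, kept without doxycycline. The T12h rescue and the T48h rescue, T12h and T48h for short, carry the same Wdr5 KO genotype and received doxycycline, which induces human WDR5, at T12h and at T48h respectively, and the labels do not say from which point these hours are counted. Wdr5 encodes a WD40-repeat protein that is shared by the histone H3 lysine methyltransferase complexes of the MLL family. No doxycycline-treated WT is analysed here, so doxycycline and the induced WDR5 cannot be told apart in the rescues, and any other change in the one clone enters the comparison of KO with WT.

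IGF1 and IGF2 are secreted growth factors that bind IGF1R, a receptor tyrosine kinase, which passes the signal through insulin receptor substrates to PI3 kinase and AKT and supports growth and survival of cells. The IGF-binding proteins are secreted carriers that hold the ligands away from the receptor or deliver them to it, and secreted proteases release the ligands again by cutting the carriers. In the vertebrate embryo, IGF signalling is known for its part in head and eye formation, and IGFs are used in culture protocols that make retinal cells from stem cells.

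Each group had 2 biological duplicates, each sequenced in 2 technical runs, which makes 16 samples. The column names carry the group and a number from 1 to 4, which no label ties to a run or a duplicate, so technical columns were joined where their counts nearly agreed (chi-square per degree of freedom of 1.60 to 1.83 in a pair, against 9.07 to 16.5 across pairs). In every group this joined columns 1 and 2, and columns 3 and 4. The 8 libraries that result, called a and b in each group with no order, held 32476672 to 65687435 estimated fragment counts in named genes. The first KO library was the deepest. Nothing in the labels says that duplicates were separate cultures, so p-values measure only the spread between libraries, which may be technical. Wdr5 itself stood at 28.4 to 32.5 CPM for KO, 186 to 187 for WT, 329 to 337 for T12h and 280.0 to 293.9 for T48h. CPM are counts divided by the scaled size of the library. Human WDR5 reads, where they aligned to the mouse gene, are part of that value.

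4 of the 7 binding-protein genes lie in 2 pairs of neighbours that are transcribed towards each other. On chromosome 1 of mm10, Igfbp2 (72824503 to 72852474, plus strand) ends 5.46 kb from the end of Igfbp5 (72857932 to 72874884, minus strand). On chromosome 11, Igfbp1 (7197782 to 7202546, plus strand) ends 3.54 kb from the end of Igfbp3 (7206086 to 7213923, minus strand). Igfbp4 stands apart from them on the same chromosome (99041244 to 99054392, plus strand). These 5 genes carried nearly all binding-protein transcripts, and in each pair the ratio of the partners varied between groups. The windows of 200 bases before the genes are printed for these reasons. They come from RefSeq on GRCm38.p6, the assembly of mm10, on the strand of the gene and without bases inside that gene as GENCODE annotates it. They are, in order, chr1:72824280-72824479 (plus), chr1:72874885-72875084 (minus), chr11:7197582-7197781 (plus), chr11:7213924-7214123 (minus) and chr11:99041044-99041243 (plus). The Igfbp4 window lies inside the locus that the deposited tables give for Igfbp4, which starts at 99040122.
Igfbp2: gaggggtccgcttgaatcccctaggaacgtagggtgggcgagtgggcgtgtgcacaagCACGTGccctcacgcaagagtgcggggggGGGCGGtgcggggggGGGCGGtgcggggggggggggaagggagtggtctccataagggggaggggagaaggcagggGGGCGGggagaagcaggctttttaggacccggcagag
Igfbp5: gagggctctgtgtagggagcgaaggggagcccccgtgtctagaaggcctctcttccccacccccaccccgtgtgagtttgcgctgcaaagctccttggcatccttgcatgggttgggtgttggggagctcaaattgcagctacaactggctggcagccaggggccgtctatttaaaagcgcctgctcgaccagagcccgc
Igfbp1: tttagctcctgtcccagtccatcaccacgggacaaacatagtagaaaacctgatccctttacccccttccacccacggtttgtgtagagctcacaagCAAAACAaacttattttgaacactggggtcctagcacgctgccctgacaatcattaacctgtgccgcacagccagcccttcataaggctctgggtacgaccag
Igfbp3: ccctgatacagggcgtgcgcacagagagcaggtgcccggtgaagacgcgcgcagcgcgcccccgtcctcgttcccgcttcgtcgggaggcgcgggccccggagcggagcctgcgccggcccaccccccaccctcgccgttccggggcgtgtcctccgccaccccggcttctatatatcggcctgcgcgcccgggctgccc
Igfbp4: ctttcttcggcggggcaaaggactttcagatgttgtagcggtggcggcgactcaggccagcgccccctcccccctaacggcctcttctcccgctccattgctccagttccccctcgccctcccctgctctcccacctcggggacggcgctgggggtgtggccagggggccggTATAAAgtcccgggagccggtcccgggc
Capitals mark matches, on either strand, to 4 short motifs: TATAAA (the TATA box), GGGCGG (the GC box), CAAAACA (a part of the insulin response element) and ACGTG (the core of the hypoxia response element). Of 32851 RefSeq promoter windows of the same length, 9.96% held TATAAA, 31% GGGCGG, 4.25% CAAAACA and 14% ACGTG. The Igfbp2 window held GGGCGG at 3 places and ACGTG on both strands, which overlap in the letters CACGTG. Igfbp1 had CAAAACA 108 bases before its RefSeq start at 7197787, and Igfbp4 had TATAAA 28 bases before its RefSeq start. The windows of Igfbp3 and Igfbp5 held none of these letters. A match is a string of letters and not a measured binding site.

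Igf1 (chromosome 10, 87858265 to 87937042, plus strand), the ligand, was near silent in WT and the T12h rescue and was transcribed in the KO and the T48h rescue. Its level was 1.11 and 0.92 CPM for WT, 27.6 and 25.3 for KO, 0.777 and 1.04 for T12h and 30.6 and 30.2 for T48h. All 4 libraries of the KO and the T48h rescue were far above the 4 others. The KO exceeded WT by a log2 change of 4.70 ± 0.20 (SE, edgeR adjusted p = 5.069e-10), and in the T12h rescue Igf1 was lower than in the KO by a log2 change of -4.88 ± 0.20 (edgeR adjusted p = 2.822e-10). The T12h rescue did not differ detectably from WT, with a log2 change of -0.18 ± 0.24 (edgeR adjusted p = 0.7013). In the T48h rescue Igf1 was 4.90 ± 0.21 above WT on the log2 scale (edgeR adjusted p = 3.737e-10). In bulk RNA, more cells of a kind that transcribes a gene and more RNA per cell cannot be told apart.

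The T48h rescue against the KO gave no call for Igf1 in counts, with a log2 change of 0.20 ± 0.16 (edgeR adjusted p = 0.2774, and 0.0004932 to 0.9171 over the alternatives), although both T48h libraries lay above both KO libraries in CPM. The deposited FPKM, fragments divided by transcript length and library size, gave another answer: they read 7.73 and 9.78 for KO and 3.63 and 3.87 for T48h, with no overlap in the opposite direction. Tested with limma on log2(FPKM + 1), Igf1 was lower in the T48h rescue than in the KO by -1.03 (limma adjusted p = 0.0004932). The ratio of FPKM to CPM for Igf1 varied 3.26-fold over the 8 libraries, from 0.118 to 0.386, while for Igf1r and Igfbp1 to Igfbp5 the ratio varied 1.06-fold to 1.15-fold. The order of the KO and the T48h rescue for Igf1 therefore depends on the unit. Igf1 overlaps the antisense gene Igf1os in the GENCODE annotation, and since no source used here gives the strand setting of the counting, reads of both cannot be told apart.

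**Figure D1:**
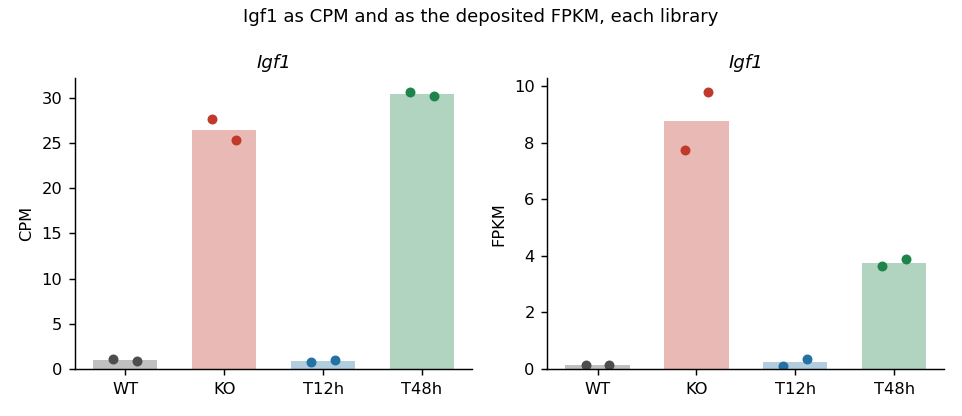
Igf1 in each library as CPM (left) and as the deposited FPKM (right), on linear axes; points are the 2 libraries of a group and bars their mean. The T48h rescue stands slightly above the KO in CPM, at a mean of 30.4 against 26.5, and below it in FPKM, at 3.75 against 8.75.

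Igf1r (chromosome 7, 67952827 to 68233668, plus strand), the receptor, was transcribed in every group and varied least, in log2 CPM over the 8 libraries, of the 7 members with more than a few counts. It stood at 176 and 179.8 CPM for WT, 108 and 107 for KO, 169 and 161 for T12h and 261 and 288 for T48h. The KO libraries were the lowest and the T48h libraries the highest, and no 2 groups overlapped. In the KO the receptor was lower than in WT by a log2 change of -0.73 ± 0.07 (edgeR adjusted p = 1.474e-06), and the T12h rescue stood 0.62 ± 0.07 above the KO (edgeR adjusted p = 6.718e-06). The T12h rescue gave no call against WT (log2 fold change -0.11 ± 0.07, edgeR adjusted p = 0.3729). In the T48h rescue Igf1r was 0.63 ± 0.07 above WT (edgeR adjusted p = 1.024e-05) and 1.35 ± 0.07 above the KO (edgeR adjusted p = 3.285e-09).

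Igfbp5, a carrier that binds extracellular matrix and is cut by several secreted proteases, had the widest range in CPM. It read 1142 and 1207 CPM for WT, 103 and 98.6 for KO, 3736 and 3860 for T12h and 683 and 676 for T48h. The 4 groups were fully separate, in the order T12h rescue, WT, T48h rescue and KO. In the KO it was lower than in WT by a log2 change of -3.54 ± 0.07, or 11.7-fold (edgeR adjusted p = 8.851e-13). The T12h rescue stood 5.24 ± 0.08 above the KO on the log2 scale, or 37.7-fold, the smallest adjusted p among the 9 members in any comparison (edgeR adjusted p = 1.269e-13). It also exceeded WT, by 1.69 ± 0.06 (edgeR adjusted p = 2.826e-08), while the T48h rescue stood below WT by a log2 change of -0.79 ± 0.06 (edgeR adjusted p = 2.724e-07). Between the KO and the T48h rescue Igfbp5 rose by 2.75 ± 0.07 (edgeR adjusted p = 4.402e-12).

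Igfbp2, a carrier abundant in fetal and neural tissue, was highest in WT. Its libraries stood at 412 and 411 CPM for WT, 243 and 242 for KO, 205 and 193 for T12h and 121 and 105 for T48h. No 2 groups overlapped. Igfbp2 fell by 0.76 ± 0.08 on the log2 scale in the KO against WT (edgeR adjusted p = 1.326e-06), and neither rescue stood above the KO. Against the KO the log2 fold change was -0.29 ± 0.08 for T12h (edgeR adjusted p = 0.004985) and -1.10 ± 0.08 for T48h (edgeR adjusted p = 3.699e-08). The T12h call was lost without the second T12h library (log2 fold change -0.22, edgeR adjusted p = 0.06128) and in limma on log2(FPKM + 1) (adjusted p = 0.05738), within a range of 2.38e-05 to 0.1411 over the alternatives. Against WT, Igfbp2 was lower in the T12h rescue by a log2 change of -1.05 ± 0.08 (edgeR adjusted p = 4.248e-06) and in the T48h rescue by -1.87 ± 0.08 (edgeR adjusted p = 3.73e-10).

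Igfbp4, a secreted carrier that is cut by the metalloprotease PAPP-A and is known as a factor for heart muscle differentiation, was lowest in the KO and highest in the T48h rescue. It read 99.2 and 95.5 CPM for WT, 10.1 and 8.31 for KO, 101 and 89.9 for T12h and 373 and 374.5 for T48h. The T12h libraries lay on both sides of the WT libraries, the KO lay below and the T48h rescue above. Igfbp4 was 10.5-fold lower in the KO than in WT, a log2 change of -3.39 ± 0.10 (edgeR adjusted p = 2.347e-11), and 3.36 ± 0.10 higher in the T12h rescue than in the KO (edgeR adjusted p = 1.838e-11). The T12h rescue gave no call against WT (log2 fold change -0.03 ± 0.09, edgeR adjusted p = 0.8716). The T48h rescue exceeded the KO by 5.33 ± 0.11 on the log2 scale, or 40.1-fold (edgeR adjusted p = 1.324e-12), and WT by 1.94 ± 0.09 (edgeR adjusted p = 1.098e-09).

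Igfbp3, the main IGF carrier of the circulation and a known target of p53, was the one binding protein that passed the test with a higher level in the KO than in WT. It stood at 9.93 and 10.6 CPM for WT, 28.3 and 32.8 for KO, 7.42 in both T12h libraries and 8.96 and 9.76 for T48h. The KO libraries stood apart above the other 6. The KO exceeded WT by 1.57 ± 0.16 on the log2 scale (edgeR adjusted p = 1.417e-06), and Igfbp3 was lower than in the KO by -2.04 ± 0.16 for T12h (edgeR adjusted p = 1.239e-07) and by -1.70 ± 0.16 for T48h (edgeR adjusted p = 5.754e-07). Neither rescue gave a call against WT, with log2 fold changes of -0.47 ± 0.16 for the early rescue (edgeR adjusted p = 0.07014) and -0.13 ± 0.16 for the late one (edgeR adjusted p = 0.5257). Of 14 listed p53 target genes, 13 were higher in the KO than in WT and none lower, with a summed level of 4214 to 4384 CPM against 1506 to 1589. Both rescues stood below the KO in this list, at 13 and 14 of 14 genes. Of all genes, 31.7% were higher in the KO than in WT. The shares lower than in the KO were 32.1% for T12h and 33.2% for T48h. Whether p53 activity has a part in the level of Igfbp3 was not tested.

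Igfbp1, a carrier of liver and decidua that insulin represses and hypoxia induces, was low except in the T48h rescue. It read 1.80 and 2.35 CPM for WT, 1.03 and 0.863 for KO, 0.259 and 0.397 for T12h and 15.7 and 19.6 for T48h. The T12h values rest on 14 and 18 counts. No 2 groups overlapped, and the T48h rescue stood 53.9-fold above the T12h rescue. Igfbp1 was lower in the KO than in WT by a log2 change of -1.12 ± 0.30 (edgeR adjusted p = 0.005268) and lower again in the T12h rescue than in the KO by -1.55 ± 0.35 (edgeR adjusted p = 0.001597). That last call was lost in edgeR on these 2 groups alone (adjusted p = 0.06778) and in limma on log2(FPKM + 1) with no filter (adjusted p = 0.05987), within a range of 0.000154 to 0.06778. The T48h rescue exceeded the KO by 4.21 ± 0.30 (edgeR adjusted p = 5.112e-08) and WT by 3.09 ± 0.29 (edgeR adjusted p = 1.2e-06). Of 14 hypoxia and glycolysis genes, none was higher and 14 were lower in the KO than in WT, and 12 were higher in the T48h rescue than in the KO. In the T12h rescue, where Igfbp1 was lower than in the KO, 11 of these genes were higher than in the KO and 1 lower. Of all genes, 32.4% were lower in the KO than in WT. The shares higher than in the KO were 32.8% for T12h and 34.2% for T48h. The part of the 14 hypoxia and glycolysis genes in the level of Igfbp1 was not tested.

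Igfbp6, a carrier that prefers IGF2, and Igfbp7, which binds IGFs weakly, were at the edge of detection. Igfbp6 had 0 to 11 counts in a library and Igfbp7 0 to 17, and 3 counts, the limit that a count of 0 allows, correspond to 0.0439 to 0.089 CPM in a library. The 2 T48h libraries held no Igfbp7 count, which allows up to 0.0387 CPM over the group. Such limits cover counting error only. Igfbp6 gave no call in any comparison, and its folds are not given because each rests on a few counts. Igfbp7 did not pass the filter on low counts and was not tested. Igfbp7 shares 85 bases and a locus in the tables with Polr2b, which lies on the other strand and stood at 265 to 317 CPM, so the few counts of Igfbp7 cannot be told apart from reads of its neighbour.

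**Figure D2:**
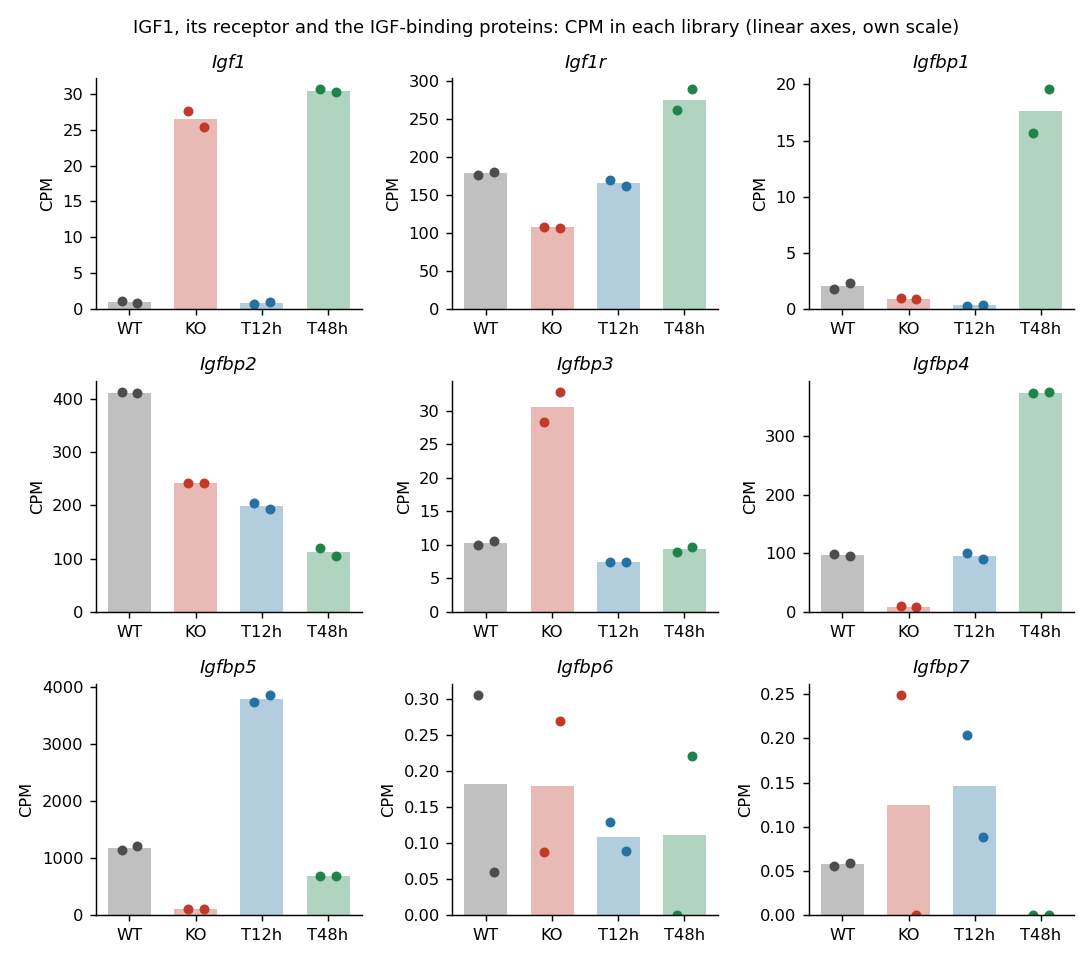
CPM of the 9 genes in each library, on linear axes with a scale of their own for each gene; points are the 2 libraries of a group and bars their mean. Igf1 is high in the KO and the T48h rescue, Igfbp3 in the KO alone, Igfbp5 in T12h, and Igfbp1 and Igfbp4 in T48h, while Igfbp6 and Igfbp7 stay under 0.31 CPM.

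Levels of different genes were set side by side in FPKM, which divide by transcript length. In WT the order of mean FPKM was Igfbp2 at 344 ± 11.6, Igfbp5 at 171 ± 6.00, Igfbp4 at 45.0 ± 0.14, Igf1r at 12.4 ± 0.13, Igfbp3 at 3.76 ± 0.16 and Igfbp1 at 1.29 ± 0.24 (SD, n = 2). Igfbp6, Igf1 and Igfbp7 followed under 0.14 FPKM, and the libraries of Igfbp6 and Igf1 overlapped. In the KO the mean FPKM ran from Igfbp2 at 199 through Igfbp5 at 15.4, Igfbp3 at 11.8, Igf1 at 8.75 and Igf1r at 7.90 to Igfbp4 at 4.54 and Igfbp1 at 0.619. Igf1 and Igf1r overlapped there, so their order is not resolved. The ratio of FPKM to CPM for Igf1 was 0.28 and 0.386 for KO and 0.118 and 0.128 for T48h. The place of Igf1 in the FPKM order of a group depends on that ratio.

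The T12h rescue was led by Igfbp5 at 551 FPKM, before Igfbp2 at 159.5, Igfbp4 at 43.0 and Igf1r at 11.5. Igfbp3 followed at 2.71 FPKM, and the remaining 4 members lay under 0.23 FPKM with overlap between neighbours in the order. The T48h rescue had another order of FPKM, with Igfbp4 first at 167, then Igfbp5 at 98.2 and Igfbp2 at 96.5, whose libraries overlapped. Igf1r at 19.0, Igfbp1 at 10.9, Igf1 at 3.75 and Igfbp3 at 3.41 FPKM came next.

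The summed level of the 7 binding-protein genes differed between groups, and so did its makeup. The sum was 565 ± 5.50 FPKM for WT, 232 ± 4.56 for KO, 757 ± 4.34 for T12h and 376 ± 15.0 for T48h (SD, n = 2). Igfbp2 made up 60.9% of this sum for WT and 85.9% for KO, where the sum was lowest. Igfbp5 made up 30.2% for WT, 6.66% for KO, 72.8% for T12h and 26.1% for T48h. Igfbp4 made up 7.97% for WT, 1.96% for KO, 5.68% for T12h and 44.5% for T48h. So each of the KO, the T12h rescue and the T48h rescue was led by another carrier gene. These shares are descriptions of the deposited FPKM, with no test.

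**Figure D3:**
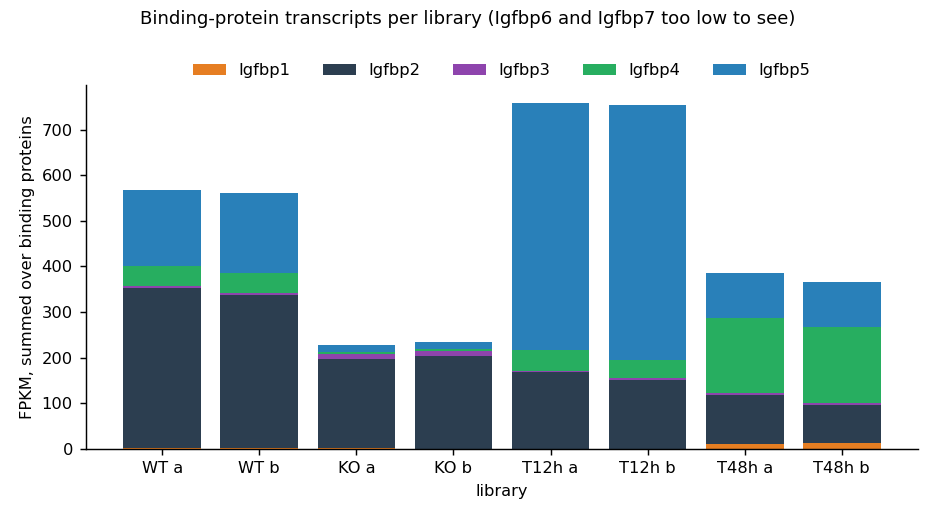
FPKM of the binding-protein genes stacked for each of the 8 libraries, on a linear axis. Igfbp2 fills most of the WT and KO bars, Igfbp5 most of the T12h bars and Igfbp4 the largest share of the T48h bars, and the 2 libraries of a group look alike.

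The ratio of FPKM within each pair of neighbours varied between groups, with no overlap between any groups for the pair of Igfbp5 and Igfbp2 and with overlap of the KO and the T12h rescue for that of Igfbp3 and Igfbp1. Igfbp5 over Igfbp2 stood at 0.473 and 0.522 for WT, 0.0802 and 0.0749 for KO, 3.25 and 3.69 for T12h and 0.905 and 1.16 for T48h. Igfbp3 over Igfbp1 stood at 3.24 and 2.65 for WT, 16.3 and 22.3 for KO, 16.8 and 10.9 for T12h and 0.337 and 0.294 for T48h. The order of the partners of the second pair was turned in the T48h rescue. These ratios were not tested.

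The loss of Wdr5, asked by KO against WT, went with fewer transcripts of the receptor and of 4 carriers and more of Igf1 and Igfbp3. Of the 9 members 8 passed the filter on low counts. Of these, 2 were higher, 5 lower and 1 gave no call, while over all 16130 genes tested 64.1% were called, 31.7% higher and 32.4% lower. The libraries of the 2 groups were apart for 7 of the 8, as for 83.4% of all genes, so neither share is far from that of genes at large. By size, 5 of the 8 were called and at least 2-fold different, against 33.6% of all genes tested, and the median absolute log2 fold change was 1.35 over the 8 members and 0.75 over all genes.

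**Figure D4:**
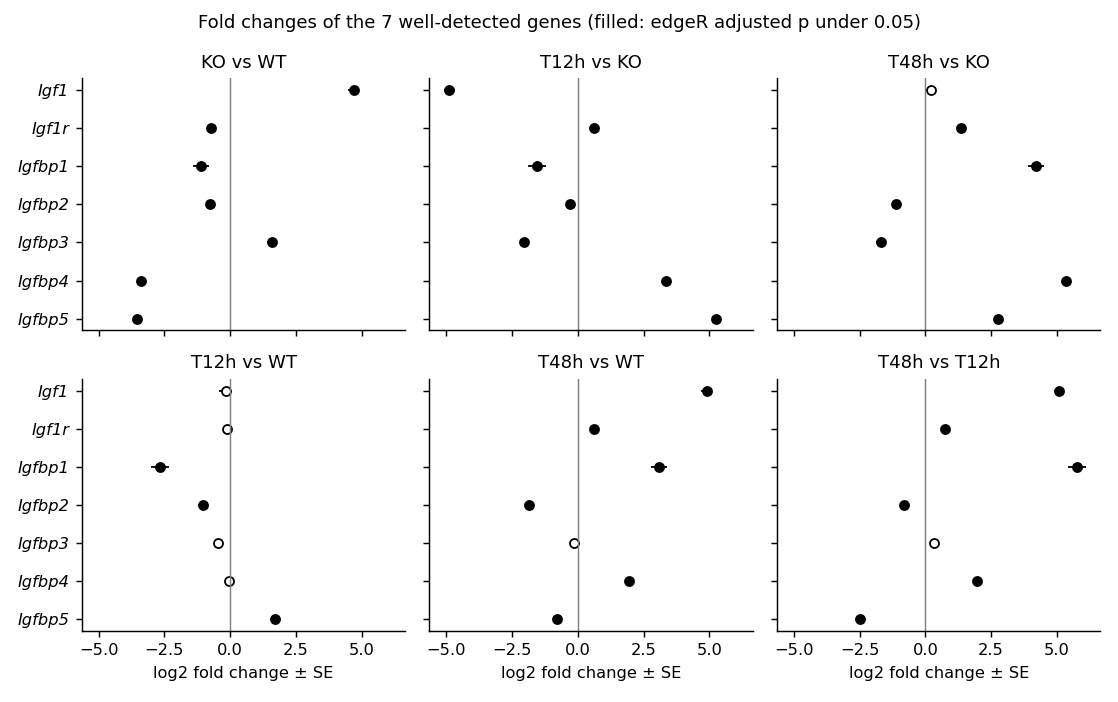
Log2 fold changes ± SE (horizontal axis) of the 7 members with more than a few counts in the 6 comparisons; filled points have an edgeR adjusted p under 0.05. Against WT, the T12h rescue leaves Igf1, Igf1r, Igfbp3 and Igfbp4 uncalled, while the T48h rescue leaves Igfbp3 alone uncalled.

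Early rescue against the KO compared the same genes with doxycycline given at T12h and without doxycycline. Igf1r, Igfbp4 and Igfbp5 were higher and Igf1, Igfbp1, Igfbp2 and Igfbp3 lower in the T12h rescue. That makes 3 and 4 of 8 tested, where 64.8% of all genes were called, 32.8% higher and 32.1% lower. Libraries were apart for 7 of the 8 (83.3% of all genes), and 5 were called and at least 2-fold different (34.6% of all genes).

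Against WT the T12h rescue differed in 3 of the 8 members, with Igfbp5 higher and Igfbp1 and Igfbp2 lower. Of all genes 14% were called there, 7.9% higher and 6.11% lower. All 3 differed by at least 2-fold, as did 3.32% of all genes tested, and libraries were apart for 5 of the 8, as for 59% of all genes. Both comparisons use the T12h libraries, so they are not independent.

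Late rescue against the KO had 4 members higher, Igf1r, Igfbp1, Igfbp4 and Igfbp5, and 2 lower, Igfbp2 and Igfbp3. Of all genes 67.3% were called, 34.2% higher and 33.2% lower. Libraries were apart for 7 of the 8 (82.7% of all genes), and 6 were called and at least 2-fold different (36.8% of all genes). Against WT the T48h rescue had 4 members higher, Igf1, Igf1r, Igfbp1 and Igfbp4, and 2 lower, Igfbp2 and Igfbp5. Of all genes 47.3% were called, 23.9% higher and 23.4% lower. Libraries were apart for 7 of the 8 (73.5% of all genes), and 4 were called and at least 2-fold different (21.9% of all genes).

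The late and early rescues were compared directly, which tests the difference of their effects. Igf1, Igf1r, Igfbp1 and Igfbp4 were higher and Igfbp2 and Igfbp5 lower in the T48h rescue. Of all genes 50.2% were called, 24.9% higher and 25.3% lower. Libraries were apart for 7 of the 8 members (74.3% of all genes), and 4 were called and at least 2-fold different (22.9% of all genes). The log2 fold changes of this comparison were 5.75 ± 0.34 for Igfbp1 (edgeR adjusted p = 1.169e-08), 5.07 ± 0.20 for Igf1 (edgeR adjusted p = 2.106e-10), 1.97 ± 0.09 for Igfbp4 (edgeR adjusted p = 8.423e-10) and 0.73 ± 0.07 for Igf1r (edgeR adjusted p = 2.079e-06). Igfbp5 stood lower by -2.48 ± 0.07 (edgeR adjusted p = 5.782e-12) and Igfbp2 by -0.82 ± 0.08 (edgeR adjusted p = 1.279e-06). Igfbp3 gave no call at 0.33 ± 0.16 (edgeR adjusted p = 0.09688).

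The other ligand, Igf2, was in all groups and at its lowest in the KO. It read 127 and 100.5 CPM for WT, 24.5 and 26.8 for KO, 38.6 and 34.5 for T12h and 63.6 and 74.8 for T48h. Igf2 was thus low where Igf1 was high in the KO, with a log2 fold change against WT of -2.15 ± 0.13 (edgeR adjusted p = 8.902e-09), and stayed below WT in the T12h rescue (-1.64 ± 0.12, edgeR adjusted p = 5.558e-06) and the T48h rescue (-0.72 ± 0.12, edgeR adjusted p = 0.0002816). Igf2 has a second locus of the same symbol in the tables, with fewer counts, which was left out. Igf2r, a scavenger receptor that removes IGF2, stood at 177 and 172 CPM for WT, 107 and 117 for KO, 127 and 116 for T12h and 29.9 and 40.5 for T48h. It was lowest where Igf1r was highest, with a log2 change of -2.31 ± 0.12 for T48h against WT (edgeR adjusted p = 3.048e-09).

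Insr, the insulin receptor, followed the order of Igf1r at its ends. It stood at 66.7 and 62.4 CPM for WT, 50.9 and 53.6 for KO, 87.3 and 82.2 for T12h and 124 and 141 for T48h. The KO was lower than WT by -0.31 ± 0.09 on the log2 scale (edgeR adjusted p = 0.008454) and the T48h rescue higher by 1.03 ± 0.09 (edgeR adjusted p = 5.132e-07). The T12h rescue also exceeded WT, by 0.39 ± 0.09 (edgeR adjusted p = 0.009599), which Igf1r did not. Insrr, an insulin receptor relative, had 60 counts in the KO and 1 to 6 in each other group; it was called lower than in the KO in the T12h rescue (edgeR adjusted p = 0.006523) and the T48h rescue (edgeR adjusted p = 0.04051), and no fold is given for so few counts. Igfals, the partner of the circulating carrier complex, had 16 to 39 counts in a group and gave no call in any comparison. The insulin genes Ins1 and Ins2 had 0 counts in WT and the T48h rescue and at most 26 in another group.

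**Figure D5:**
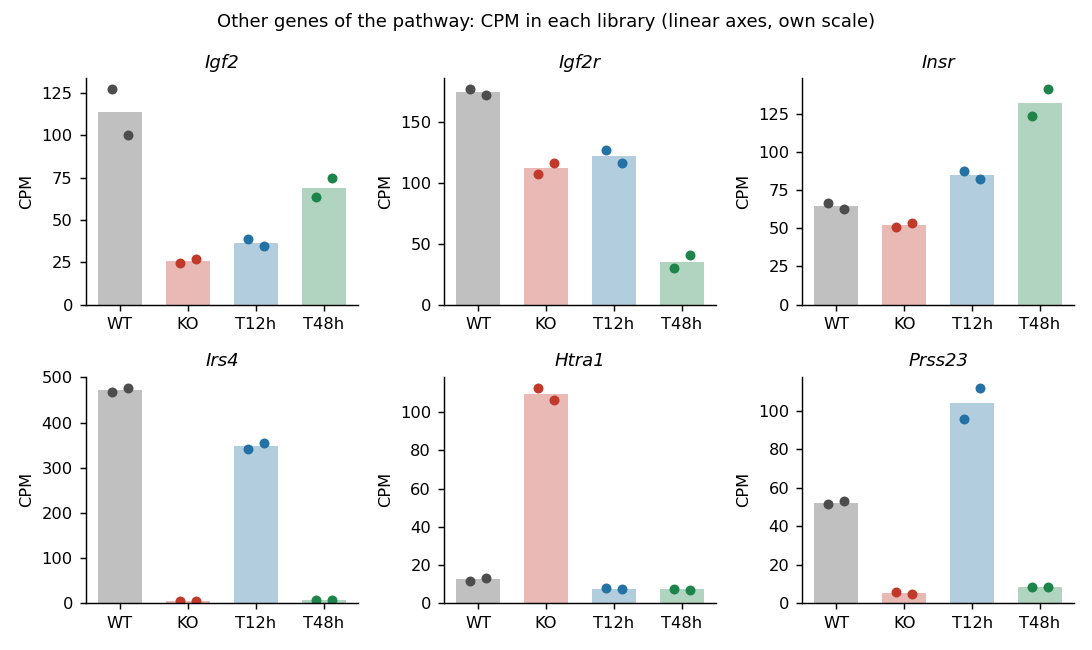
CPM in each library of 6 other genes of the pathway, on linear axes of their own; points are the 2 libraries of a group and bars their mean. Irs4 and Prss23 are high in WT and the T12h rescue alone, and Htra1 for KO alone.

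Among 30 listed genes of signalling below IGF1R, 10 were higher, 10 lower and 10 without a call in the KO against WT, with a median log2 fold change of 0.0037 against 0.0040 over all genes. Of all genes 31.7% were higher and 32.4% lower there, shares close to those of the list. Irs4, an insulin receptor substrate, had the smallest adjusted p of them. It stood at 468 and 478 CPM for WT, 3.79 and 4.61 for KO, 341 and 354 for T12h and 6.95 and 6.47 for T48h. Irs4 was thus far lower in both groups in which Igf1 was high than in the other groups, though well detected there, with 430 counts for KO and 519 for T48h. Foxo3 and Foxo4, transcription factors that AKT restrains, were higher in the KO than in WT by log2 fold changes of 0.86 ± 0.08 (edgeR adjusted p = 4.641e-07) and 1.02 ± 0.09 (edgeR adjusted p = 4.548e-07). Foxo1 gave no call there (0.16 ± 0.10, edgeR adjusted p = 0.1949). In the T48h rescue against WT 11 of the 30 were higher and 8 lower, beside 23.9% and 23.4% of all genes. The 3 Foxo genes differed there. Foxo4 exceeded WT by 2.79 ± 0.09 (edgeR adjusted p = 4.864e-11). Foxo1 was lower than in WT by -1.79 ± 0.11 (edgeR adjusted p = 1.875e-08), and Foxo3 gave no call (0.17 ± 0.08, edgeR adjusted p = 0.07872). In the T12h rescue 6 of the 30 were higher than in WT and 2 lower, beside 7.9% and 6.11% of all genes. Against the KO, 15 were higher and 7 lower in the T12h rescue, and 14 higher and 8 lower in the T48h rescue, where 32.8% and 32.1%, and 34.2% and 33.2%, of all genes were called.

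Proteases that cut the carriers, and their inhibitors, differed by gene. Of 9 listed, 8 were tested, and 2 were higher and 4 lower in the KO than in WT, beside 31.7% and 32.4% of all genes. Htra1, a secreted protease that cuts IGFBP5, stood at 11.5 and 13.1 CPM for WT, 113 and 107 for KO, 7.72 and 7.29 for T12h and 7.54 and 6.72 for T48h. The KO was the high group for Htra1 (log2 fold change against WT 3.16 ± 0.12, edgeR adjusted p = 1.905e-10) and the low group for Igfbp5. Prss23, a secreted serine protease, stood at 51.3 and 53.3 CPM for WT, 5.67 and 4.48 for KO, 95.9 and 112 for T12h and 8.25 and 8.36 for T48h. Its highest group was the T12h rescue, as for Igfbp5. Stc1 and Stc2, stanniocalcins that inhibit PAPP-A, were lower in the KO than in WT by log2 fold changes of -2.73 ± 0.21 (edgeR adjusted p = 1.287e-07) and -1.77 ± 0.15 (edgeR adjusted p = 2.476e-07). Adam12, a metalloprotease that cuts IGFBP3 and IGFBP5, stood at 27.3 and 28.4 CPM for T48h and at most 0.63 CPM in every other library. Against WT, 2 of the 8 were higher and 4 lower in the T12h rescue, beside 7.9% and 6.11% of all genes. In the T48h rescue 3 were higher and 4 lower than in WT, beside 23.9% and 23.4%.

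Of 12 other genes with an IGFBP domain 9 were tested, and 6 were higher and 2 lower in the KO than in WT, beside 31.7% and 32.4% of all genes. Ctgf and Cyr61, matricellular proteins, exceeded WT by log2 fold changes of 1.49 ± 0.08 (edgeR adjusted p = 2.735e-09) and 1.13 ± 0.08 (edgeR adjusted p = 8.148e-08). In the T12h rescue against WT 1 of the 9 was higher and none lower, beside 7.9% and 6.11% of all genes. In the T48h rescue against WT 2 were higher and 3 lower, beside 23.9% and 23.4%. Igf2bp2 and Igf2bp3, which bind Igf2 mRNA in the cytoplasm and are no carriers, were both lower in the KO, by -2.01 ± 0.09 (edgeR adjusted p = 3.775e-10) and -1.23 ± 0.06 (edgeR adjusted p = 2.283e-09) on the log2 scale.

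Markers of other cell types moved with these genes, and their part in the results was not tested. Hand1 is in both the cardiac and the trophoblast list, and Sox17 in both the endothelial and the endoderm list. The summed level of 12 eye field and neural progenitor markers was 2044 to 2130 CPM for WT, 305 to 320.1 for KO, 2336 to 2414 for T12h and 226 to 242 for T48h, and none of the 12 was at 0 in any group. The 12 cardiac and lateral mesoderm markers summed to 125 for WT, 246 to 260.5 for KO, 119 to 134 for T12h and 2695 to 2700 CPM for T48h, where all 12 were above WT. Mesenchyme and smooth muscle markers summed to 1939 to 1986 CPM for T48h and to 278 to 427 elsewhere, with Dcn at 0 for T12h, and 11 of 12 were higher in the T48h rescue than in WT. Endothelial markers summed to 817 to 846 CPM for T48h and to 114 to 279 elsewhere, with Emcn at 0 for KO, and 10 of 10 were higher than in WT. Igf1, Igfbp1 and Igfbp4 thus stood high in the group in which these 3 marker lists were high. Igf1 also stood at 26.5 CPM in the KO. There these lists summed to far less than for T48h, but to more than for WT and T12h. The KO sums were 387.5 to 426.8 CPM for mesenchyme and 277.5 to 279.3 for endothelial markers. In the KO against WT, 5 cardiac markers were higher and 3 lower. For mesenchyme these counts were 2 and 5, and for endothelial markers 7 and 1, beside 31.7% and 32.4% of all genes. Trophoblast markers summed to 1827 to 1957 CPM for T48h, with Elf5 at 0, and to 521 to 548 for KO, against 112 to 135 for WT and the T12h rescue. This list was mixed by gene: 6 of 10 were higher and 3 lower in the T48h rescue than in WT. Against the KO, 5 were higher and 4 lower in the T48h rescue. Of all genes, 23.9% were higher and 23.4% lower in the T48h rescue than in WT, and 34.2% and 33.2% against the KO. Endoderm markers were highest in the KO, at 1165 to 1175 CPM against 401 to 786 elsewhere, and so were pluripotency markers, at 1462 CPM against 742 to 1082. Against WT, 7 of 11 endoderm markers were higher and 2 lower in the KO, and 9 of 10 pluripotency markers higher and 1 lower. Of all genes 31.7% were higher and 32.4% lower there.

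The genes with the pattern most like each member were found by the root mean square difference of log2 CPM, centred on the mean of each gene, over the 8 libraries and 11169 genes. They are descriptions, and libraries of a group share their condition. Igf1r lay closest to Braf, a kinase of the MAP kinase pathway, at a difference of 0.0384, where Igf1r itself varied by 0.481 around its mean, and then to Khnyn and Zcchc11. For Igfbp3 the closest were Atp10a at 0.079, Alg13 and Shb. Igf1 came closest to Cdkl1 at 0.26, then to Evx1 and Ldb3, against its own variation of 2.38. Igfbp1 was nearest to Zcchc24 at 0.375, Lmo2 and Twist1, and Igfbp2 to Prdm16 at 0.218, Fgf15 and Hook1. Igfbp4 was nearest to Dlk1 at 0.27, Col4a6 and Susd5, and Igfbp5 to Efnb3 at 0.425, Sorbs2 and Peg12. Twist1 is also in the mesenchyme marker list. The 9 members were left out of the genes that could be named as nearest, so likeness between members was not examined.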

How the data were processed

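RNA was sequenced in 16 samples of day 6 embryoid bodies. Reads were processed on mm10 with Cufflinks 2.2.1, TopHat2 2.1.1, deepTools and SAMtools 1.5, per the submitters' processing notes. No annotation or strand setting is named in these sources. Per the file headers, one deposited table has an estimated count for each locus, which the values show to be multiplied by 1 factor per column, and the other deposited table holds FPKM. That factor was divided out, after which 92.3% to 93.2% of values were whole within 0.02 fragments, and technical columns were summed and rounded. Loci without a name (5143 of 28432, with 3.16% to 6.12% of counts) and 8 loci marked as holding too many fragments were left out, and 112 companion columns of bounds, variances and status entered no test, the status being read to find those 8. A locus that joined several symbols was not matched to a single one.

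Tests used edgeR 4.0.16 under R 4.3.3 (quasi-likelihood F-test, TMM, filterByExpr, Benjamini-Hochberg over 16130 genes, adjusted p under 0.05). All 4 groups shared 1 fit with group as the only term, with 4 residual degrees of freedom, and the script was tested on simulated data. CPM use TMM-scaled library sizes, and SE is the log2 fold change over the root of F. Where libraries total 32476672 counts or more, 3 counts are at most 0.089 CPM. FPKM served to compare genes, and for limma 3.58.1 on log2(FPKM + 1) or log2(FPKM + 0.1), a scale that understates changes of low genes. Other alternatives were RLE, upper-quartile and total scaling, TMM without chromosome 8, no filter, DESeq2 1.42.0, 2 groups only, 1 technical column, leaving out each library and, added after the data were examined, a block on the order of the columns. Gene positions are from GENCODE, and promoter windows from RefSeq. The protein comparison planned for the members was not analysed here. The text names the 9 members, Wdr5, the tested genes of the list of other ligands and receptors, up to 4 genes of other pathway lists with the smallest adjusted p, and the 3 nearest genes of members at 5 CPM or more in the highest group. Ins1, Ins2, Polr2b, Igf1os and the markers at 0 were named after their values were seen. A gene that the rule takes is not reported here. The members and lists were chosen with earlier results of these data known.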

Additional observations from a re-analysis of the deposited data

Results flagged for a closer look

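For 6 members the effect of the rescue differed between its 2 times, by a direct edgeR test of the T48h rescue against the T12h rescue, which is the difference of their log2 fold changes against the shared KO. The difference was 5.75 for Igfbp1, 5.07 for Igf1, 1.97 for Igfbp4 and 0.73 for Igf1r, each higher in the T48h rescue, and -2.48 for Igfbp5 and -0.82 for Igfbp2. Igfbp1 was below the KO in the T12h rescue (-1.55) and above it in the T48h rescue (4.21), while Igf1 was below the KO in the T12h rescue (-4.88) and gave no call in the T48h rescue. Wdr5 was itself 1.16-fold lower in the T48h rescue (edgeR adjusted p = 0.02846, and 0.001349 to 0.08119 over the alternatives). The time of induction and the Wdr5 level at day 6 cannot be told apart here.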

How the results depend on the processing

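No label ties the column numbers to a duplicate, and library b minus library a in log2 CPM correlated between groups by -0.06 to 0.09 over 16130 genes, so the numbers were not taken to pair the libraries. A replicate block on the order of the column pairs, added after the data were examined, changed no call of a member and gave 10042 called genes for KO against WT in place of 10337 and 2047 for the T12h rescue against WT in place of 2261. Of 672 values of member log2 fold changes under alternatives, 656 kept their direction and their side of the threshold, 6 lost a call, 2 gained one and 8 changed sign, none of them for a called change. Signs changed for Igf1 in the T48h rescue against KO (-1.03 in limma on log2(FPKM + 1), with or without the filter, and -1.19 on log2(FPKM + 0.1)). They also changed in the T12h rescue against WT, for Igf1 (0.12 and 0.43 in the same limma fits, and -0.39 to 0.023 with 1 library left out, the highest without T12h library a) and Igfbp4 (-0.12 to 0.046, the highest without T12h library b). The calls lost are those of Igfbp2 and Igfbp1 in the T12h rescue against KO, and those gained are of Igfbp3, in the T12h rescue against WT with library totals (adjusted p = 0.04958, and 0.04958 to 0.2626 over the alternatives) and in the T48h against the T12h rescue with 1 technical column (0.02935, and 0.02935 to 0.32). The number of genes called in the T12h rescue against WT fell from 2261 to 1116 in limma on log2(FPKM + 1) with no filter and lay between 1068 and 1515 with 1 library left out, 1068 without WT library a, 1217 without T12h library a and 1316 without T12h library b. The median of all genes in the T48h rescue moved to -0.15 against KO, -0.16 against WT and -0.12 against the T12h rescue with upper-quartile scaling, and to -0.18, -0.21 and -0.17 with library totals. Higher and lower genes went from 3858 and 3769 to 2771 and 5347 against WT, from 5509 and 5353 to 4511 and 6331 against KO, and from 4014 and 4086 to 3159 and 5226 against the T12h rescue with library totals. With upper-quartile scaling they were 3053 and 4791, 4719 and 6141, and 3439 and 4746. For the T12h rescue against WT they went from 1275 and 986 to 1047 and 1195 under upper-quartile scaling, and to 1035 and 1212 under library totals. In these comparisons no called member changed direction or lost its call under either scaling. The cause of these shifts was not tested. Depth limits Igfbp6 and Igfbp7, with 17 counts or fewer in a library.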
